A study of Mus musculus with 6 samples.

Results

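The 10 genes described here belong to the antiviral response of cells to type I interferon: Ifit1, Ifit2, Ifit3, Isg15, Usp18, Rsad2, Mx1, Mx2, Oas1a and Oasl2. They were taken by symbol from a deposited table of 55298 gene identifiers. Each of the 10 symbols had 1 identifier, and all 10 genes were among the 18161 tested. The data come from brain cells captured with magnetic beads against O4, a surface antigen of late oligodendrocyte precursors and oligodendrocytes, in mice of the strain labelled c56Bl/6j. The EAE group had been immunised with the MOG 35-55 peptide of myelin oligodendrocyte glycoprotein, which induces experimental autoimmune encephalomyelitis, a model of multiple sclerosis, and the OVA group had been given ovalbumin. Cells of both groups were taken at the peak of disease and sequenced without culture. The EAE group comprised 6 mice, whose RNA was sequenced as 3 pools with 2 mice in each. The OVA group comprised 4 mice in 3 samples: 2 mice were pooled in replicate 2, and replicates 1 and 3 came from a single mouse.

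Type I interferons (the interferon alpha family and interferon beta) bind the receptor IFNAR1/IFNAR2 and activate the kinases JAK1 and TYK2. These phosphorylate STAT proteins, STAT2 among them, which join IRF9 and bind the interferon-stimulated response element (ISRE) in promoters. The induced proteins bind foreign RNA, block translation, degrade RNA or interfere with virus assembly, and many of their genes also respond to interferon gamma, the product of activated T and natural killer cells. In the brain, microglia, astrocytes, endothelial cells, oligodendrocytes and infiltrating leukocytes can all make them.

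Promoter sequences are shown first because the 10 genes are grouped by a shared mode of induction. The RefSeq promoter table (GRCm38.p6, 250 bases before to 50 after the transcription start) held 7 of the 10 genes, with 8 promoters. Usp18, Mx1 and Mx2 were not matched. The core of the ISRE was searched as GAAA, NN (any 2 bases) and GAAA without a break, on both strands, overlapping matches included. It occurred in at least 1 promoter of 5 of the 7 matched genes (Ifit1, Ifit3, Isg15, Rsad2 and Oas1a), against 3.99% of the 27025 genes in the table. Counted per promoter of 300 bases, it occurred in 3.44% of all 32851. The promoters of Ifit1, Ifit3, Isg15 and Oas1a show how the matches are placed, and that of Oasl2 shows a gene of the group without these letters. Each is written 5′ to 3′ on the gene's own strand, with matches in capitals.
Ifit1 (chr19:34640639-34640938, plus strand): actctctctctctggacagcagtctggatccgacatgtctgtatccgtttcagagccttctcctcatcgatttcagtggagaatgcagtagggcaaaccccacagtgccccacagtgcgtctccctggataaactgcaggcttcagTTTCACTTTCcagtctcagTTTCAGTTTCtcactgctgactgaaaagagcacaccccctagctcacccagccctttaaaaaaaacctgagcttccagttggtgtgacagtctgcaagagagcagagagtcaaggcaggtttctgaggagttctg
Ifit3 (chr19:34583279-34583578, plus strand): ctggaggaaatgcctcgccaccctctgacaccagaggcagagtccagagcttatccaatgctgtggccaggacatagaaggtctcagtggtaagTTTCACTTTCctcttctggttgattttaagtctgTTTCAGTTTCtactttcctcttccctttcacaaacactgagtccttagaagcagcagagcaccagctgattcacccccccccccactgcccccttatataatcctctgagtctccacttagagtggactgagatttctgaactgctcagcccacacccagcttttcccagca
Isg15 (chr4:156200769-156201068, minus strand): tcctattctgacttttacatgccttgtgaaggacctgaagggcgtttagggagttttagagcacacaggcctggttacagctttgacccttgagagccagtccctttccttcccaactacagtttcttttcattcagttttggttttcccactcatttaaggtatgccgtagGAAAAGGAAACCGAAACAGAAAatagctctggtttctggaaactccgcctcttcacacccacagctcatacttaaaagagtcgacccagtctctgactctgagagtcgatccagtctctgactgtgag
Oas1a (chr5:120907476-120907775, minus strand): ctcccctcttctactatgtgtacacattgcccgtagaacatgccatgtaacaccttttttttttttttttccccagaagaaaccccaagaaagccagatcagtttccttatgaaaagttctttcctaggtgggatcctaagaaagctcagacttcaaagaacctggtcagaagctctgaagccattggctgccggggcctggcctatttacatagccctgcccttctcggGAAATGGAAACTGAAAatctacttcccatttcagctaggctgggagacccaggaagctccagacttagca
Oasl2 (chr5:114896684-114896983, plus strand): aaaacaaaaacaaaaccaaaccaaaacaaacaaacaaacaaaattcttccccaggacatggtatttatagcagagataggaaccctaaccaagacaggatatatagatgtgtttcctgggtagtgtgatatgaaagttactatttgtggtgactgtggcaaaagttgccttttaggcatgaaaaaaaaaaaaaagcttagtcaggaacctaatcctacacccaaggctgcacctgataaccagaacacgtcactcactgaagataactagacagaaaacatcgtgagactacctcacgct

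Ifit1 and Ifit3 each held the pair TTTCACTTTC and TTTCAGTTTC, which are matches on the opposite strand. They began 104 and 85 bases before the start in Ifit1, and 156 and 122 bases before it in Ifit3. Isg15 held 3 overlapping matches that began 78, 72 and 66 bases before the start and form 1 run of capitals. In Oas1a a pair of overlapping matches lay close to the start, beginning 20 and 14 bases before it. Rsad2 held TTTCATTTTC from 120 bases before its start, and both promoters listed for Ifit2 had no match. The gamma-activated site, searched as TTCNNNGAA, which reads the same on both strands, occurred in 2 of the 7 genes (Ifit2 and Oas1a), against 9.55% of all genes, and in 8.30% of all promoters. A match is a string of letters and no evidence of binding.

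All 10 genes had higher mean values in EAE than in OVA. The differences ran from 0.65 for Mx2 to 1.73 for Ifit3 on the log2 scale of the deposited regularised logarithm (rlog) values, which is 1.57-fold to 3.31-fold, with a median of 1.17. Of all tested genes 49.3% had a difference above 0, and their median was -0.0024. A difference of at least 1 was seen for 9 of the 10 and for 1.12% of all genes. In limma's test across all 18161 genes, 5 of the 10 rose (Ifit2, Ifit3, Mx1, Mx2 and Oasl2) and 5 did not pass the threshold of 0.05 on the Benjamini-Hochberg adjusted p, whereas 1.72% of all genes were called higher and 2.38% in either direction. At an unadjusted p under 0.05, all 10 were higher, against 9.17% of all genes. For 8 of the 10 the lowest EAE pool lay above the highest OVA sample, which held for 12.1% of all genes. The exceptions were Isg15 and Rsad2. Each p rests on a variance in which limma combines the gene's own spread with that of all tested genes. With 3 samples in each group, the smallest two-sided p of an exact permutation test is 0.1. The calls depended on single samples (replicates 1 to 3 of each group, written EAE 1 to EAE 3 and OVA 1 to OVA 3). With EAE 1, EAE 2 or OVA 2 dropped, limma called 0 of the 10, although all 10 kept an unadjusted p under 0.05. It called 1 (Mx2) when OVA replicate 1 was dropped, 6 when EAE replicate 3 was dropped and all 10 when OVA replicate 3 was dropped. The calls over all tested genes moved as well. From 312 called higher in the fit of all 6 samples, they became 84 without EAE 1, 24 without EAE 2 and 30 without OVA 2. They were 99 without OVA 1, 286 without EAE 3 and 850 without OVA 3.

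**Figure D1:**
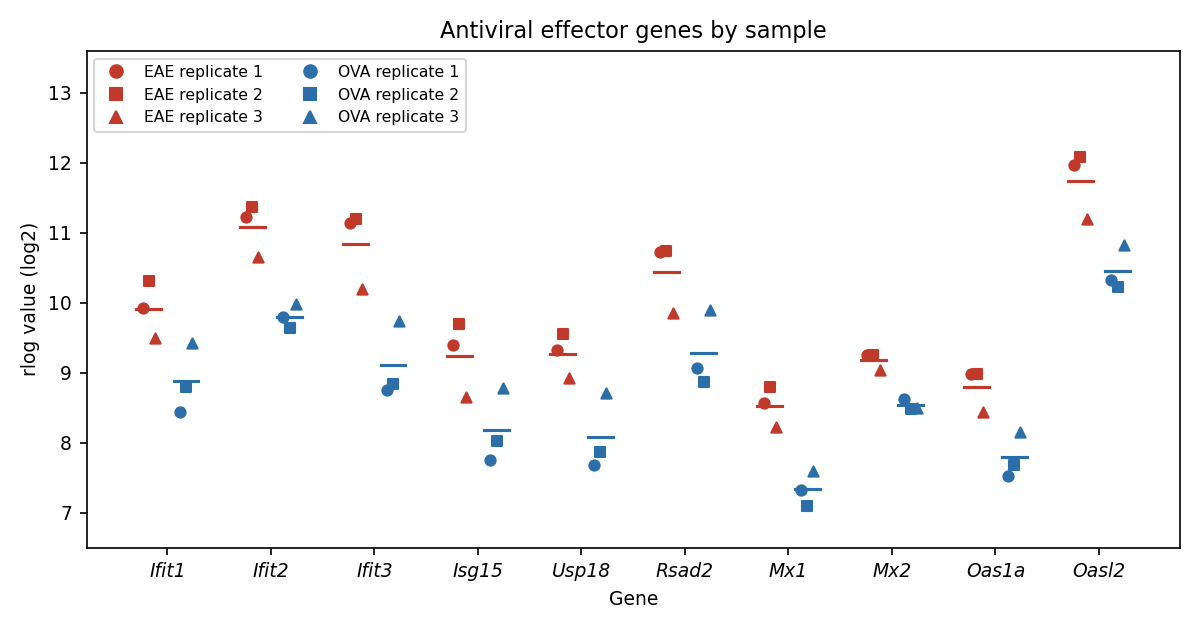
rlog values (log2, y axis) of the 10 antiviral effector genes (x axis) in each sample, with EAE pools in red to the left of OVA samples in blue, marker shapes for replicates 1 to 3 and a line at each group mean (n = 3). EAE replicate 3 was the lowest EAE pool for all 10 genes, and OVA replicate 3 the highest OVA sample for 9 of them.

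The Ifit proteins (interferon-induced proteins with tetratricopeptide repeats) bind viral RNA and limit its translation. Ifit2, Ifit3 and Ifit1 lie in this order in 1 cluster on the plus strand of chromosome 19 (positions here and below are GENCODE M21 on GRCm38, 1-based). Ifit3 (ENSMUSG00000074896.3, 34583531 to 34588731), a partner that stabilises Ifit1 on RNA in human cells, had the largest difference of the group. It stood at 11.14, 11.19 and 10.19 in EAE replicates 1 to 3, against 8.76, 8.84 and 9.74 in OVA replicates 1 to 3. The groups did not overlap, but EAE replicate 3 and OVA replicate 3 were only 0.45 apart. The rise was 1.73 ± 0.34 (SE), or 3.31-fold (limma adjusted p = 0.0462). Dropping any 1 of EAE 1, EAE 2, OVA 1 or OVA 2 ended the call, with an adjusted p of up to 0.179, as did testing without a filter on low values or without an intensity trend. Of the 50-base stretches in the annotated Ifit3 transcripts, 51.2% also occurred in Ifit3b, so reads of the pair may be mixed or lost in counting.

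Ifit2 (ENSMUSG00000045932.12, 34550694 to 34576419), which binds AU-rich RNA and is linked to antiviral defence in neurons, had the smallest adjusted p of the 10. Its values were 11.22, 11.37 and 10.65 in EAE and 9.79, 9.64 and 9.98 in OVA. The lowest EAE pool exceeded the highest OVA sample by 0.67, the widest separation among the 10 genes. The rise was 1.28 ± 0.18 (SE), or 2.42-fold (limma adjusted p = 0.0204). The call ended when EAE 1, EAE 2, OVA 1 or OVA 2 was dropped, with an adjusted p of up to 0.0954. No 50-base stretch of Ifit2 occurred in another gene's transcripts.

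Ifit1 (ENSMUSG00000034459.8, 34640871 to 34650009) recognises RNA whose cap lacks the methyl mark of host messages. It had 9.93, 10.31 and 9.49 in EAE, against 8.44, 8.80 and 9.42 in OVA. OVA replicate 3 nearly reached EAE replicate 3, so that the groups were separated by 0.07. The difference was 1.02 ± 0.28 (SE) and did not pass (limma adjusted p = 0.12), and it passed only with OVA replicate 3 left out (adjusted p = 0.018) or with array quality weights.

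Isg15 and Usp18 act as a pair. Isg15 (ENSMUSG00000035692.7, chromosome 4, 156199424 to 156200818, minus strand) is a ubiquitin-like protein that is attached to other proteins. It stood at 9.39, 9.70 and 8.65 in EAE, against 7.76, 8.03 and 8.78 in OVA. Here OVA replicate 3 exceeded EAE replicate 3 by 0.13, and the groups overlapped. The difference of 1.06 ± 0.33 (SE) had the highest adjusted p of the 10 (limma, 0.163).

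Usp18 (ENSMUSG00000030107.10, chromosome 6, 121245906 to 121270917, plus strand) removes ISG15 from proteins and also blocks signalling at IFNAR2, so that it restrains the response that induces it. Its values were 9.33, 9.55 and 8.93 in EAE and 7.69, 7.87 and 8.71 in OVA. The groups were separated by 0.22, and OVA replicate 3 again lay far above the other OVA samples. The lincRNA Gm44148 overlaps Usp18 on the opposite strand and had a mean rlog value of 2.2. The difference was 1.18 ± 0.27 (SE; limma adjusted p = 0.0791). Without OVA replicate 3 both genes passed, with differences of 1.35 for Isg15 and 1.49 for Usp18.

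Rsad2 (ENSMUSG00000020641.16, chromosome 12, 26442746 to 26456452, minus strand) encodes viperin, a radical SAM enzyme that makes a chain-terminating nucleotide. It had 10.72, 10.74 and 9.86 in EAE, against 9.07, 8.87 and 9.89 in OVA. OVA replicate 3 stood 0.02 above EAE replicate 3, while the other samples of the groups were far apart. The difference was 1.16 ± 0.32 (SE; limma adjusted p = 0.119), and 1.47 without OVA replicate 3, where it passed.

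The Mx genes, on chromosome 16, encode dynamin-like GTPases that trap viral nucleocapsids. Many inbred laboratory strains carry defective alleles of both, and RefSeq lists Mx1 and Mx2 as transcribed pseudogenes in the reference mouse genome, so their transcripts are read here as RNA only. Mx1 (ENSMUSG00000000386.16, 97447035 to 97462907, minus strand) had 8.57, 8.80 and 8.22 in EAE and 7.32, 7.10 and 7.60 in OVA. The groups were 0.62 apart, and the rise was 1.18 ± 0.18 (SE), or 2.27-fold (limma adjusted p = 0.0233).

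Mx2 (ENSMUSG00000023341.15, 97535308 to 97560900, plus strand) stood at 9.25, 9.26 and 9.04 in EAE, against 8.62, 8.49 and 8.50 in OVA. It was the steadiest of the 10 genes, with an SD of 0.12 in EAE and 0.07 in OVA, and the one in which OVA replicate 3 was not the highest OVA sample. Its rise of 0.65 ± 0.10 (SE), or 1.57-fold, was the smallest difference and passed the test (limma adjusted p = 0.0212). Dropping EAE 1, EAE 2, OVA 1 or OVA 2 ended the call of Mx1 (adjusted p up to 0.104), and dropping EAE 1, EAE 2 or OVA 2 that of Mx2 (up to 0.116).

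The Oas family senses double-stranded RNA. Oas1a (ENSMUSG00000052776.10, chromosome 5, 120896256 to 120907521, minus strand) makes 2′-5′ oligoadenylate, a messenger that sets off the decay of RNA in infected cells. Its values were 8.99, 8.98 and 8.44 in EAE and 7.53, 7.69 and 8.16 in OVA, with the groups 0.28 apart. The difference of 1.01 ± 0.21 (SE) lay just outside the threshold (limma adjusted p = 0.0548). Oas1a passed under 6 of 14 alternatives, weights by number of mice and equal medians among them. It did not pass without EAE 1, EAE 2, OVA 1 or OVA 2 (adjusted p up to 0.209). Of its 50-base stretches 57.6% also occurred in Oas1g, so its counts are uncertain in the same way as those of Ifit3.

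Oasl2 (ENSMUSG00000029561.17, chromosome 5, 114896936 to 114912234, plus strand) is an Oas-like protein with ubiquitin-like domains. It had 11.97, 12.08 and 11.19 in EAE, against 10.32, 10.22 and 10.82 in OVA. The groups were 0.37 apart, and the rise was 1.29 ± 0.25 (SE), or 2.45-fold (limma adjusted p = 0.0461). Like that of Ifit3, the call ended when EAE 1, EAE 2, OVA 1 or OVA 2 was dropped (adjusted p up to 0.179), with no filter on low values and with no intensity trend.

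**Figure D2:**
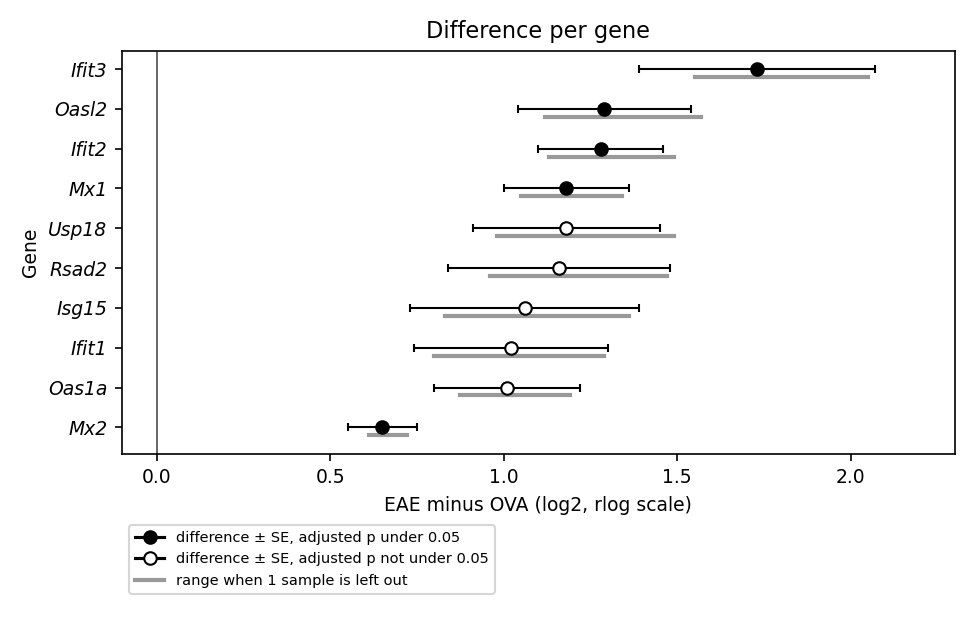
EAE minus OVA (x axis, log2 on the rlog scale) for each of the 10 genes (y axis), with the SE as a whisker, filled circles for a limma adjusted p under 0.05, and a grey line for the range when each sample is left out in turn. Every range lay above 0, and Mx2, with the smallest difference of 0.65, had a narrow range from 0.61 to 0.72, against 1.55 to 2.05 for Ifit3.

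Levels of different genes were compared per kilobase of exon, as the rlog value minus the log2 of the exon length in kb. In EAE the order was Ifit3 (10.04), Isg15 (9.65), Ifit2 (9.11), Oasl2 (9.08), Ifit1 (8.50), Rsad2 (8.32), Oas1a (7.89), Usp18 (7.79), Mx2 (7.33) and Mx1 (6.61). Between neighbours, the gap exceeded the SDs of both genes from Oasl2 to Ifit1, from Usp18 to Mx2 and from Mx2 to Mx1. From Isg15 to Ifit2 the gap and the SD of Isg15 were both 0.54 as rounded, and the other 5 gaps did not exceed both SDs. In OVA, Isg15 (8.59) was ahead of Ifit3 (8.31), Mx2 (6.68) was ahead of Usp18 (6.61), and Mx1 (5.42) was again the last. The gap above Mx1, of 1.19, was the only one in OVA larger than both SDs. Ifit3 was above Isg15 in each of the 3 EAE pools, and Isg15 above Ifit3 in each of the 3 OVA samples. In neither group did the gap between them exceed their SDs. Sequence shared with Ifit3b makes the level of Ifit3 uncertain, as sequence shared with Oas1g does for Oas1a. The exons counted for Isg15 and Mx1 may also differ from those used for length. Exon length is that of all annotated exons, which can exceed that of the transcripts made.

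The same replicates were mostly the extreme ones within each group. Averaged over the 10 genes, the rlog value was 10.05, 10.20 and 9.47 in EAE replicates 1 to 3, and 8.53, 8.56 and 9.16 in OVA replicates 1 to 3. EAE replicate 2 was the highest EAE pool for 9 genes and EAE replicate 1 for Oas1a. EAE replicate 3 was the lowest for all 10, which held for 34.2% of all tested genes. OVA replicate 3 was the highest OVA sample for 9 genes (40.2% of all tested genes), and the lowest OVA sample was replicate 1 for 5 genes and replicate 2 for 5. Set against the average of OVA replicates 1 and 2, OVA replicate 3 was higher by 0.68 at the median of the 10 genes, within a range from -0.05 for Mx2 to 0.95. The average over the 10 genes did not overlap between the groups.

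Marker lists of other cell types differed between samples in several patterns. Over 7 monocyte and macrophage markers, all of which lay above 0, the mean was 10.09, 9.70 and 8.99 in EAE, against 7.15, 7.22 and 8.69 in OVA. EAE replicate 3 was thus the lowest EAE pool and OVA replicate 3 the highest OVA sample, as for the mean of the 10 genes. The mean hides unlike markers. In OVA replicate 3, Chil3 (12.2) and Ly6c2 (9.39) stood above every EAE pool. Arg1 (6.41) and F10 (7.01) stood below every EAE pool there, and the other markers lay among the EAE pools. Of these markers 2 rose, Arg1 and F10, against 1.72% of all genes, and 0 did with EAE 2 or OVA 2 dropped (limma adjusted p up to 0.0619 for Arg1 and 0.0703 for F10, whose call also ended without OVA 1). Over 7 T cell markers the mean was 5.68, 5.83 and 5.80 in EAE and 5.02, 5.03 and 5.18 in OVA, with EAE replicate 1 the lowest EAE pool. Of these 5 rose, and 1 (Cd3e) when EAE 2 or OVA 2 was dropped. Of 6 general leukocyte and myeloid markers, with means of 11.38, 11.23 and 11.18 in EAE and 10.64, 10.48 and 10.78 in OVA, 3 rose. Among them Cd68, a lysosomal protein of phagocytes, rose by 1.20 and kept its call with each sample dropped, while the calls of Aif1 and Fcer1g ended when EAE 1, EAE 2 or OVA 2 was dropped, and that of Fcer1g also without EAE 3 or OVA 1.

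The neutrophil mean over 4 genes was 8.01, 8.12 and 7.43 in EAE, against 7.92, 8.26 and 11.34 in OVA, and over 3 B cell markers the means were 6.78 to 7.02 in EAE and 6.86, 6.96 and 8.20 in OVA. OVA replicate 3 was the highest sample in both lists, and limma called 0 of their genes, with 0 at an unadjusted p under 0.05. Over 6 homeostatic microglia markers the means were 10.07, 10.15 and 10.52 in EAE and 11.12, 10.81 and 10.81 in OVA, and all 6 differences lay below 0. Of these 2 fell, P2ry12 and Fcrls, against 0.666% of all genes, and 0 did when EAE 1, EAE 2, OVA 1 or OVA 2 was dropped. Of 6 astrocyte markers, with means of 12.58 to 12.78 in EAE and 13.01 to 13.27 in OVA, 4 fell and 1 rose. The one that rose was Gfap, the intermediate filament of reactive astrocytes, by 1.35 (limma adjusted p = 0.00446), a call kept with each sample dropped, whereas none of the 4 that fell kept its call without EAE 2. All 5 endothelial markers lay below 0, with means of 12.32, 12.83 and 12.43 in EAE and 12.70, 12.97 and 13.42 in OVA, highest in OVA replicate 3. Limma called 0 of them, against 0.666% of all genes called lower. An unadjusted p under 0.05 was seen for 2, and the share of all genes lower at that p was not counted. No marker of these lists was at 0 in all samples, and their part in the differences of the antiviral genes was not tested. In bulk samples, a change in the number of cells of a type and a change in RNA per cell cannot be told apart. The 8 oligodendrocyte markers, Mbp and Mog among them, averaged 15.07 to 15.27 in EAE and 14.52 to 15.07 in OVA, lowest in OVA replicate 3. All 8 differences lay above 0, with a median of 0.29, and limma called 0 of them. Of 3 oligodendrocyte precursor markers 1 fell, Ptprz1, with a difference of -0.63 (limma adjusted p = 0.0485), against 0.666% of all genes. With samples dropped in turn, that call was kept only without OVA 3. Xist, a non-coding RNA made from the silenced X in females, stood at 13.50 to 14.16 in EAE and 7.39 to 7.63 in OVA, and the Y-linked Ddx3y at 9.44 to 10.18 in EAE and 11.29 to 11.46 in OVA. Each EAE pool thus held Ddx3y RNA beside high Xist, and the EAE pools may include both sexes. The sex composition therefore differed between the groups, and sex and immunisation cannot be told apart.

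**Figure D3:**
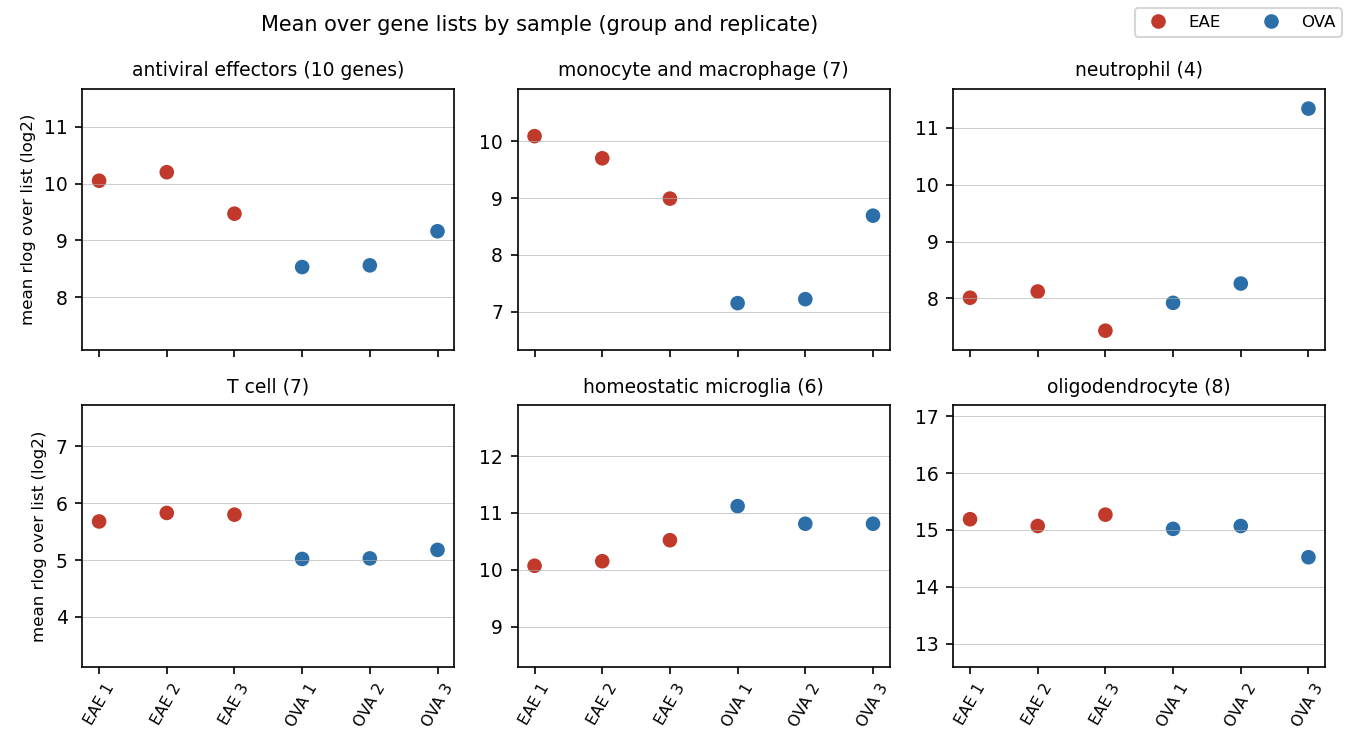
Mean rlog value (log2, y axis) over the 10 antiviral effector genes and over 5 marker lists in each sample (x axis; EAE replicates 1 to 3 in red, OVA replicates 1 to 3 in blue), each panel spanning the same number of log2 units. OVA replicate 3 was the highest OVA sample for the antiviral genes at 9.16, the monocyte and macrophage markers at 8.69 and the neutrophil markers at 11.34.

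The rest of the pathway was read from 10 lists with 81 genes, of which 59 were tested. Of these, 9 rose (15.3%, against 1.72% of all genes), 0 fell, and 54 lay above 0, with a median difference of 0.49. Each call came from the fit of all 6 samples. The 9 became 0 with EAE 2 or OVA 2 dropped, 1 with EAE 1, 2 with OVA 1, 16 with EAE 3 and 32 with OVA 3 dropped. Over all 18161 genes, 312 were called higher with all 6 samples. The same drops gave 24 without EAE 2, 30 without OVA 2, 84 without EAE 1 and 99 without OVA 1. They gave 286 without EAE 3 and 850 without OVA 3. No type I interferon ligand was abundant: of 18 ligand genes, 17, including every interferon alpha gene, were listed at 0 in all samples. Ifnb1, interferon beta, was listed at 0.44 to 0.51 in EAE and at 0.44 in OVA, below the filter on low values. Ifng, interferon gamma, was low but rose, with 4.32, 4.48 and 4.32 in EAE and 3.89, 4.00 and 3.90 in OVA (0.44 ± 0.07, SE; limma adjusted p = 0.0246). When samples were dropped in turn, it passed only without OVA 3 (adjusted p up to 0.108).

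Of 6 genes of the receptor and its signalling, 1 rose. Stat2, which joins Irf9 in the complex that binds the ISRE, had 12.38, 12.43 and 11.87 in EAE and 11.54, 11.28 and 11.34 in OVA. The groups did not overlap, and the rise was 0.84 ± 0.15 (SE; limma adjusted p = 0.0385). Irf9, the DNA-binding subunit, differed by 0.49 ± 0.14 (0.127), and the receptor chains Ifnar1 and Ifnar2 differed by -0.12 and 0.01 (0.729 and 0.968). Dropping EAE 1, EAE 2, OVA 1 or OVA 2 ended the call of Stat2 (adjusted p up to 0.158).

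Of 9 factors that switch interferon genes on, 3 rose: the kinase Ikbke by 1.32 (limma adjusted p = 0.0112), Irf1 by 1.30 (0.0407) and Irf5 by 0.58 (0.0397). Irf7, the factor that amplifies interferon alpha production, differed by 1.52 ± 0.31 (SE) without passing (0.0534). Of 5 cytosolic sensors, Zbp1, which binds Z-form nucleic acid, rose by 2.08 ± 0.34 (0.0263), a larger difference than that of any of the 10 effectors, while the RNA sensors Ddx58 (RIG-I) and Ifih1 (MDA5) differed by 0.33 and 0.35 (0.429 and 0.399). All 4 calls ended when EAE 2 or OVA 2 was dropped, and all but that of Ikbke when EAE 1 or OVA 1 was. The call of Irf5 ended with EAE 3 dropped as well.

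Close relatives of the 10 genes differed in the same direction. Of the 50-base stretches of Ifit3, 51.2% also occurred in Ifit3b, and of those of Oas1a, 57.6% in Oas1g. The values of Ifit3b and Oas1g may therefore include reads of Ifit3 and Oas1a, and may not be independent of them. None of 3 Ifit paralogs passed limma's test, with 3 at an unadjusted p under 0.05, against 9.17% of all genes higher at that p. Ifit3b had 9.28, 9.46 and 8.59 in EAE and 7.83, 7.55 and 8.35 in OVA, a difference of 1.20 ± 0.27 (SE; limma adjusted p = 0.0712). Ifit1bl2 differed by 0.42 (0.243). Of 6 tested Oas paralogs, all above 0, Oas1g rose by 0.94 ± 0.15 (0.0244), a call that ended when EAE 1, EAE 2, OVA 1 or OVA 2 was dropped (adjusted p up to 0.115). Oas3, named after its value was seen, differed by 1.57 ± 0.36 (0.0749). Of the 4 genes that attach ISG15 or aid its attachment, limma called 0, with 3 at an unadjusted p under 0.05, against 9.17% of all genes higher. Their differences were alike, at 0.57 for the ligase Trim25 (0.102), 0.61 for the conjugating enzyme Ube2l6 (0.312), 0.62 for the activating enzyme Uba7 (0.137) and 0.69 for the ligase Herc6 (0.0598). Of 20 other antiviral effectors, 19 had a difference above 0, the median was 0.40, and 2 rose, Xaf1 by 0.67 (0.0296) and Ifi27 by 0.42 (0.0495). Both calls ended when EAE 1, EAE 2 or OVA 2 was dropped, and that of Ifi27 also with EAE 3 or OVA 1 dropped. The genes that restrain signalling included Socs3 and Socs1, which differed by 0.91 (0.0531) and 0.77 (0.108).

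**Figure D4:**
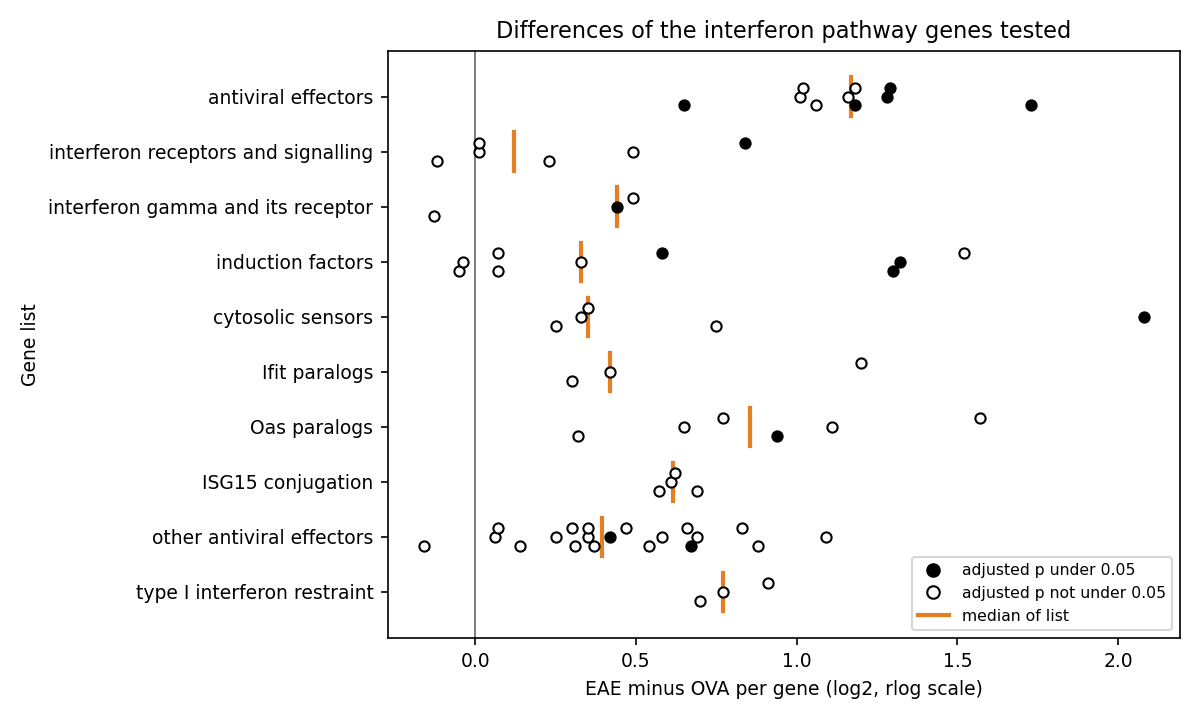
EAE minus OVA (x axis, log2 on the rlog scale) of each tested gene (circles, filled where the limma adjusted p was under 0.05) in the 10 antiviral effectors and in 9 lists of the interferon pathway with tested genes (y axis), with an orange line at each median. The effectors had a median of 1.17, whereas the receptor and signalling genes had a median of 0.12 with Stat2 at 0.84, and the sensors a median of 0.35 with Zbp1 at 2.08.

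The genes whose values over the 6 samples were most like the mean of the 10 were sought by Pearson correlation among the other 18151 tested genes, with predicted models and pseudogenes not named. The 8 closest were Wdr31, Irgm2, Daxx, Apol7e, H2-T22, Irf1, Irf7 and Ifi47, with r from 0.995 to 0.998 over 6 samples. Of the 8, limma called 2 (Irgm2 and Irf1), against 1.72% of all genes called higher. Wdr31, the closest, differed by only 0.27 (limma adjusted p = 0.251) and Daxx by 0.42 (0.0915). Apol7e, with values just above the filter, differed by 0.2 (0.131). An r of at least 0.99 was reached by 18 genes, 0.0992% of those compared. The 6 points are shared by all genes and fall into the EAE and OVA groups, so r takes in the group difference itself and was given no test. Irgm2, an immunity-related GTPase, had 11.66, 11.75 and 11.07 in EAE and 9.88, 9.90 and 10.68 in OVA, and rose by 1.34 (limma adjusted p = 0.0425). Ifi47, of the same family, differed by 1.27 (0.0791), and H2-T22, a non-classical class I gene, by 0.81 (0.0614). Cxcl9, a chemokine induced by interferon gamma, had an r of 0.937 and rose by 3.56 (limma adjusted p = 0.000556). Cd74 had an r of 0.949 and rose by 1.69 (0.00536). Both kept their calls with each sample dropped, unlike any of the 10 genes. The monocyte and macrophage markers Arg1 and Ly6c2 had an r of 0.922 and 0.863. It was 0.475 for the oligodendrocyte gene Mbp and -0.087 for the neutrophil gene S100a9.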

How the data were processed

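Libraries were made from RNA of O4-captured cells with the TruSeq Stranded mRNA kit (labels' protocols). Per the submitters' processing notes the build was GRCm38 and the tools included DESeq2 1.24.0, Subread 1.6.1, STAR 2.6.1c, cutadapt 1.18 and bcl2fastq 2.17, with no roles given. The deposited table gives 1 log2 value per gene and sample, the regularised logarithm (rlog) of scaled counts made by the authors, per the file's name. The rlog shrinks values of weakly expressed genes towards the gene's mean, which understates their differences. The table gives no counts, so depth is unknown. The sources used here do not say whether counting used strand or reads shared between genes.

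Of 55298 identifiers, 55117 (99.7%) matched a symbol, and 54550 matched GENCODE M21 with their version. Those of Isg15 and Mx1 matched without it, so their counted exons may differ from those used for length. Groups follow the treatment label, and replicate numbers follow sample order. Genes with a mean rlog under 3 over the 6 samples were left out. EAE was compared with OVA by limma 3.58.1 in R 4.3.3 (empirical Bayes with an intensity trend, two-sided, Benjamini-Hochberg over all 18161 tested genes, threshold 0.05), and every adjusted p comes from that model. Errors are SEs of differences or SDs over 3 samples. A fold is the rlog difference taken out of the log2 scale. Pools average their mice, so the spread is between samples, not between mice.

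The 10 genes, the pathway and marker lists and the rules were chosen with earlier results of these data known. Named are all 10 genes, for each list up to 3 called genes, ordered by size of difference (or the 2 with the smallest p), the 8 genes most like the mean of the 10, and 7 reference points. Some marker genes that this rule takes and the reference point Ptprc are left out for length. So are the marker lists of plasmacytoid dendritic cells, pericytes and neurons as a whole. Irf9, Ifnar1, Ifnar2, Ddx58, Ifih1, Uba7, Ube2l6, Ly6c2, Chil3 and S100a9 were named beyond the rule with their values known. Shared sequence was the share of 50-base stretches of a gene's GENCODE M21 transcripts found in transcripts of another gene. Alternatives were other filters, no trend, robust moderation, sample weights, equal medians, quantile normalisation and leaving out each sample. Some genes of the pathway and marker lists are not reported here and are left out of the lists' counts.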

Additional observations from a re-analysis of the deposited data

How the results depend on the processing

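All 10 genes kept a difference above 0 under all 14 alternatives. The number called, 5, was 3 without a filter on low values and 3 without an intensity trend (Ifit2, Mx1 and Mx2 in both), and 10 with array quality weights, whose estimation did not converge and gave OVA replicate 2 a weight of 8.85, against 0.222 for OVA replicate 3. Those weights raised the genes called higher to 2858, against 312, and lower to 2233, against 121. Other settings gave 5 to 7. With each sample left out in turn, the number of the 10 genes called ranged from 0 to 10, their median difference from 1.02 to 1.36, the genes called higher from 24 to 850 and lower from 1 to 346. No paired analysis was possible because the labels carry no number shared between EAE and OVA samples. Depth is unknown, so how it limits each value cannot be stated.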
